A study of Mus musculus with 6 samples.

Results

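The genes described here are 10 antiviral effector and galectin-related genes, Bst2, Rsad2, Cmpk2, Mx1, Mx2, Samhd1, Lgals3bp, Lgals9, Parp14 and Xaf1, taken by symbol from a table of 24062 genes, where all 10 were found. They were chosen with the difference between the genotypes in these retinae already known, so their differences are given as a description, with no p-value, and how many of them passed a threshold supports nothing. RNA-seq libraries came from 3 Rb1/p107/Hells TKO retinae (Chx10-Cre; Rb1 lox/lox; p107-/-; Hells lox/lox) and 3 Rb1/p107 DKO retinae (Chx10-Cre; Rb1 lox/lox; p107-/-) of untreated mice at postnatal day 21, labelled C57BL/6 and kept on a C57BL/6N background by the study's methods. Both groups lack p107 in all cells and delete Rb1 where Chx10-Cre was active in retinal progenitors. That Cre acts in a mosaic, so each whole retina also holds cells without recombination, and no library from a Cre-negative retina was analysed here. The comparison asks which transcripts depend on Hells, which encodes the chromatin remodeler HELLS, in a retina that already lacks Rb1 and p107.

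Interferons are secreted proteins that bind cell surface receptors and, through JAK kinases, STAT proteins and interferon regulatory factors, switch on a large set of interferon-stimulated genes. Complexes of these factors bind DNA elements called ISRE and GAS. In the nervous system these genes are low at rest and are known to rise in microglia, glia and neurons during infection or nucleic acid sensing. The 10 genes act at different steps. Bst2 (tetherin) holds budding virus on the cell surface, Mx1 and Mx2 are dynamin-like GTPases, Rsad2 (viperin), Cmpk2 and Samhd1 act on nucleotides, Parp14 is an ADP-ribosyltransferase, Xaf1 counteracts the apoptosis inhibitor XIAP, Lgals9 is a galectin, and Lgals3bp is a secreted glycoprotein bound by galectins.

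Upstream stretches are printed for Bst2, Rsad2 and Lgals9, the genes of the 10 whose 250 bases before the RefSeq start held an ISRE match, and for Cmpk2, the neighbour of Rsad2, for comparison. Each runs 5′ to 3′ on the gene's own strand from 150 to 26 bases before the start (RefSeq, GRCm38.p6), and capitals mark ISRE matches (GAAA, any 2 bases, GAAA, on either strand) or GAS matches (TTC, any 3 bases, GAA).
Bst2, chr8:71537498-71537622, minus strand: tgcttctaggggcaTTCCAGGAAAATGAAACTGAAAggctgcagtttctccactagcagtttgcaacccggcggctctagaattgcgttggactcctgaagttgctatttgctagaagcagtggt
Rsad2, chr12:26456478-26456602, minus strand: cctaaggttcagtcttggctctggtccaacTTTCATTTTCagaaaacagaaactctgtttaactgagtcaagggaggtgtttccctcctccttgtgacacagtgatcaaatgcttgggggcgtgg
Cmpk2, chr12:26469065-26469189, plus strand: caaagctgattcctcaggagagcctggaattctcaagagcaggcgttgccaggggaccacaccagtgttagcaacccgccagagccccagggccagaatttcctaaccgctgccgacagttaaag
Lgals9, chr11:78984950-78985074, minus strand: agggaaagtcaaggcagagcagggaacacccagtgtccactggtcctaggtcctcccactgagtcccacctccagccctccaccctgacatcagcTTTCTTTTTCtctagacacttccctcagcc
The Bst2 run in capitals holds 1 GAS match and 2 ISRE matches that overlap one another, from 136 to 115 bases before the start. The Rsad2 match lies 120 to 111 bases and the Lgals9 match 55 to 46 bases before the start, both on the opposite strand.

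Windows were found for 7 of the 10 genes, not for Mx1, Mx2 and Parp14. An ISRE match was in 3 of these 7 windows, and in the windows of 936 of 27025 genes (3.46%) genome-wide. A GAS match was in 2 of the 7, Bst2 and Samhd1, against 8.13% of all genes, and Cmpk2, Lgals3bp and Xaf1 had neither. The RefSeq starts differ for several genes from the GENCODE starts used for the gene positions below. Those of Samhd1 (157135096 against 157135265), Lgals3bp (118401959 against 118402092), Lgals9 (78984924 against 78984946) and Cmpk2 (26469215 against 26469204) lie inside the GENCODE gene. Part of each of these windows does too. Of 55 other interferon effector genes with a window, from a hand-written list described below, 21 (38.2%) held an ISRE match and 8 (14.5%) a GAS match. A match is a run of letters, not a measured binding site.

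Total counts ran from 10343907 to 14203098 per library. Levels are given as normalized counts, for which each library was brought to the same TMM-scaled size. Values of single retinae stand in the order of replicates 1, 2 and 3, and errors are the SD over the 3 retinae of a genotype. Hells, the targeted gene, measured 60.8, 68.4 and 83.4 normalized counts in the TKO retinae, against 678, 523 and 395 in the DKO retinae. Each TKO library thus lay below each DKO library, the direction the labels give. Rb1, lox/lox in both groups, measured 814, 746 and 682 in the TKO retinae, against 617, 583 and 572 in the DKO retinae. Its log2 fold change was 0.34 (standard error 0.0912). These counts do not measure the share of recombined cells, and whether it differed between the groups was not tested. Cre removes a single exon of Hells, and reads on its other exons are counted too. A retina is counted as a whole, so fewer cells of a type and less RNA per cell cannot be told apart.

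All 10 genes had lower mean normalized counts in TKO than in DKO retinae, but by very different amounts. In 8 genes, from Rsad2 at 15.9% to Parp14 at 38.8% of the DKO mean, every TKO retina lay below every DKO retina. In Cmpk2 and Samhd1, at 82.3% and 93.8% of the DKO mean, the groups overlapped. With the thresholds of the study's methods (adjusted p of at most 0.05 from edgeR, log2 fold change of -1 or lower, mean normalized count of at least 10), 8 of the 10 met the criteria for a lower gene, beside 4.38% of all 16904 genes tested (1.97% met them for a higher gene). Every TKO retina was below every DKO retina in 20.6% of all genes. The median log2 fold change was -1.52 over the 10 genes and -0.011 over all genes. Because the genes were picked on this contrast, nothing is read from these counts, here or with retinae left out. All 10 passed the low count filter, Mx1 with a mean normalized count of 15.1 that came mostly from the DKO libraries.

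**Figure D1:**
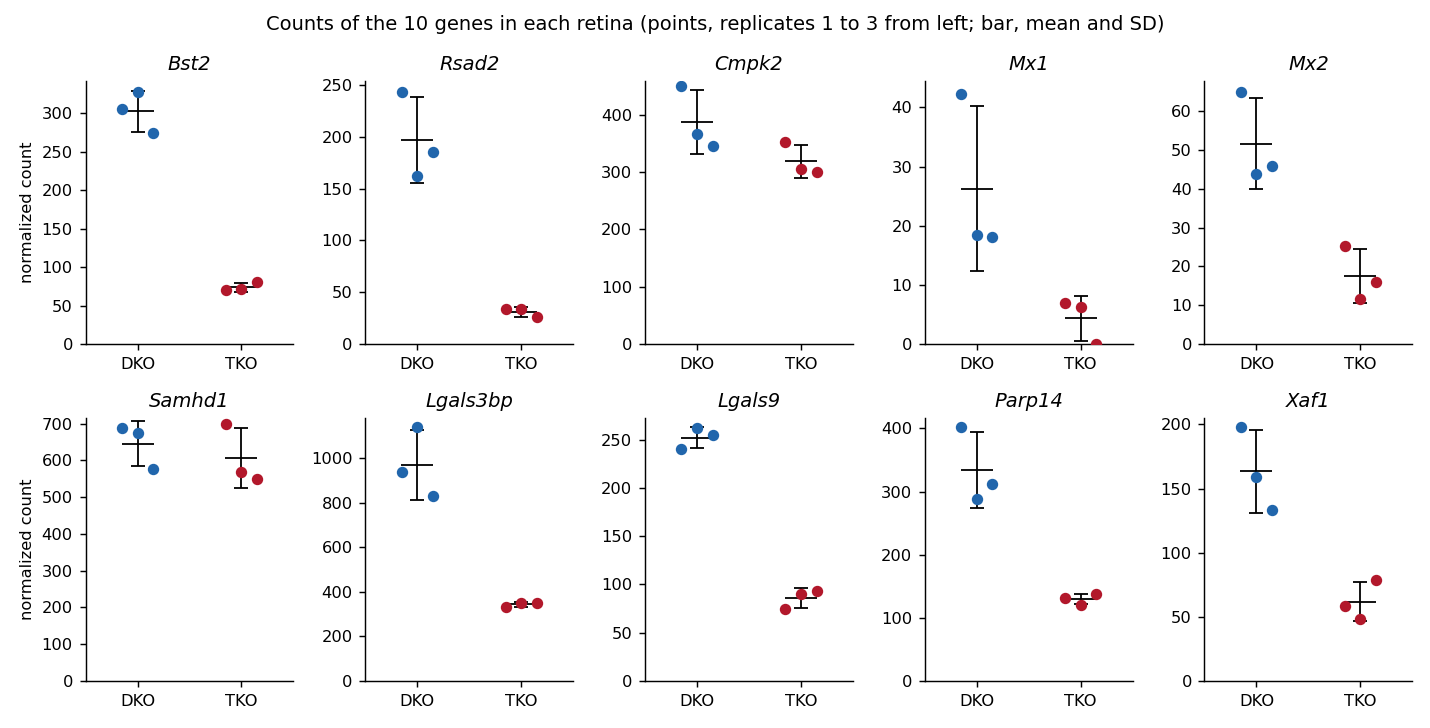
Normalized counts (y axis, linear from 0) of each of the 10 genes in 3 DKO and 3 TKO retinae, with points for single retinae and bars for the mean and SD. The groups are separate in 8 panels and overlap for Cmpk2 and Samhd1.

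Bst2 encodes tetherin, a membrane protein that links virus particles to the cell they bud from. Its GRCm38 position is chromosome 8, 71534255 to 71537456, minus strand. Bst2 measured 70.0, 71.6 and 81.0 normalized counts in the TKO retinae, against 305, 327 and 275 in the DKO retinae. The lowest DKO retina held 3.39 times the highest TKO retina, and the replicates of each genotype lay close together (74.2 ± 5.96 against 302 ± 26.5, SD, n = 3 each). The log2 fold change was -2.03 (standard error 0.140), a 4.07-fold lower level.

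Mx1 and Mx2 encode dynamin-like GTPases that block incoming virus. In most laboratory mouse strains, C57BL/6 among them, these genes carry defects and make no working antiviral protein, and the GENCODE annotation lists Mx2 as a polymorphic pseudogene. They lie head to head on chromosome 16, Mx1 on the minus strand from 97447035 to 97462907 and Mx2 on the plus strand from 97535308 to 97560900, with starts 72.4 kb apart.

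Mx1 was the scarcest of the 10, with 6, 6 and 0 raw counts in the TKO retinae, against 45, 21 and 21 in the DKO retinae. A count of 0 in TKO replicate 3 allows up to 3 counts, or 3.68 normalized counts, and such limits cover counting error only. The groups were separate, with 4.399 ± 3.82 and 26.3 ± 13.9 normalized counts, but DKO replicate 1 held more than the other two DKO retinae together. The log2 fold change was -2.50 with a standard error of 0.706, the widest of the 10.

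Mx2 measured 25.2, 11.6 and 15.95 normalized counts in the TKO retinae, against 64.9, 43.8 and 45.8 in the DKO retinae. TKO replicate 1 was the highest TKO retina and DKO replicate 1 the highest DKO retina, and the groups did not overlap. The means were 17.6 ± 6.97 and 51.5 ± 11.7, a log2 fold change of -1.55 (standard error 0.340). Of the stretches of 50 bases in Mx1 transcripts, 3.91% were also in transcripts of other genes, Mx2 among them, and 4.38% of those of Mx2 were also in Mx1. A read pair that lies wholly within shared sequence cannot be assigned to 1 of the genes, but one that reaches beyond it can.

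Of the 8 genes that met the criteria, Mx1 and Mx2 did not meet them in every fit with 1 retina left out. Mx1 no longer met the criteria when replicate 1 or 2 of either genotype was left out, and its log2 fold change ranged from -2.92 to -1.96 over the 6 fits that each left out 1 retina. Mx2 no longer met them when TKO replicate 2 or either of DKO replicates 1 and 2 was left out, with log2 fold changes from -1.90 to -1.31 over the 6 fits. Of the other 5 dynamin family genes, Dnm1, Dnm2, Dnm3, Dnm1l and Opa1, none was called. Their median log2 fold change was 0.092, and -0.066 with total counts only, a scaling that put the median of all genes at -0.17.

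Rsad2, Cmpk2 and Samhd1 act on nucleotides. Viperin, the product of Rsad2, turns CTP into a chain-terminating analogue, Cmpk2 is a mitochondrial nucleoside monophosphate kinase, and SAMHD1 breaks down dNTPs. Rsad2 (chromosome 12, 26442746 to 26456452, minus strand) and Cmpk2 (26469204 to 26479837, plus strand) are neighbours with starts 12.8 kb apart, and no gene of those tested lies between them.

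Rsad2 measured 34.4, 33.7 and 25.8 normalized counts in the TKO retinae, against 243, 162 and 186 in the DKO retinae. The groups were far apart, with the lowest DKO retina at 4.71 times the highest TKO retina. The means were 31.3 ± 4.79 and 197 ± 41.6, a log2 fold change of -2.64 (standard error 0.223) and a 6.25-fold lower level. The log2 fold change of Mx1, which has a TKO library at 0 counts, was the larger without TKO replicate 1 (-2.92 against -2.71), without TKO replicate 2 (-2.85 against -2.70) and without DKO replicate 3 (-2.71 against -2.68).

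Cmpk2 measured 352, 305 and 299 normalized counts in the TKO retinae, against 451, 367 and 345 in the DKO retinae. TKO replicate 1 lay above DKO replicate 3, so the groups overlapped. Its log2 fold change was -0.28 (standard error 0.132), beside -2.64 for its neighbour. In DKO retinae Cmpk2 was also the more abundant per length, at 7.36 ± 1.06 RPKM (reads scaled to library size and to kb of exon) against 3.59 ± 0.758 for Rsad2.

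Samhd1, on chromosome 2 from 157097533 to 157135265, measured 700, 567 and 550 normalized counts in the TKO retinae, against 687, 674 and 575 in the DKO retinae. The highest of all 6 values was in TKO replicate 1. The means of 606 ± 81.9 and 645 ± 61.3 differed by less than the SD of either group, with a log2 fold change of -0.092 (standard error 0.120). The nearest tested gene on its upstream side, 10.6 kb away, is Rbl1, which encodes p107 and is deleted in both groups, at 20.3 ± 7.02 in TKO and 18.6 ± 4.87 normalized counts in DKO retinae.

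Genes that make or salvage dNTPs were read for comparison with these enzymes. Of 16 nucleotide supply genes, 5 were called lower, among them Rrm1 and Rrm2, and 0 higher, with a median log2 fold change of -0.56. Rrm1, the large subunit of ribonucleotide reductase, had 767 ± 61.6 and 1884 ± 422 normalized counts (log2 fold change -1.30, adjusted p = 0.006025 from edgeR). Nme1, a nucleoside diphosphate kinase, and Cmpk1, the cytosolic relative of Cmpk2, had log2 fold changes of 0.11 (adjusted p = 0.562 from edgeR) and -0.24 (adjusted p = 0.0876). The count was 3 without TKO replicate 2, without DKO replicate 1 or without DKO replicate 2.

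Lgals3bp and Lgals9 belong to the galectin system, in which galectins bind sugars on cell surface proteins. Lgals3bp, on chromosome 11 from 118392751 to 118402092, measured 330, 349 and 351 normalized counts in the TKO retinae, against 937, 1142 and 832 in the DKO retinae. The TKO retinae agreed to within a coefficient of variation of 3.36%, the smallest in either group for any of the 10 genes, and all lay far below the DKO retinae. The means were 344 ± 11.5 and 970 ± 157, a log2 fold change of -1.50 (standard error 0.124).

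Lgals9, on the same chromosome from 78962974 to 78984946, measured 74.5, 90.5 and 93.3 normalized counts in the TKO retinae, against 240, 262 and 255 in the DKO retinae. The lowest DKO retina was 2.57 times the highest TKO retina. The means were 86.1 ± 10.1 and 252 ± 11.1, a log2 fold change of -1.55 (standard error 0.142).

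The other galectin genes were read in the same way. Of 8 tested, 0 were called in either direction with edgeR, 5 had a log2 fold change below 0, and the median was -0.29. Lgals7 was scarce, with 2.29, 0 and 0 normalized counts in the TKO retinae, all below the level that 3 counts give, and 6.59, 3.50 and 6.91 in the DKO retinae. Lgals8, which marks damaged endosomes, stood at 612 ± 42.3 in TKO and 502 ± 33.8 normalized counts in DKO retinae (log2 fold change 0.29, adjusted p = 0.0742 by edgeR), and Lgals1, which is widespread in stroma and glia, had -0.41 (adjusted p = 0.102 from edgeR). Lgalsl, which encodes a galectin-like protein, was higher in TKO retinae (log2 fold change 0.81, adjusted p = 0.0244 from edgeR). Its adjusted p rose to at most 0.0995 without TKO replicate 1, TKO replicate 2, DKO replicate 1 or DKO replicate 2.

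Parp14 transfers ADP-ribose to proteins and is known to act with Parp9 and Dtx3l downstream of interferon. It lies on chromosome 16 from 35832874 to 35871544 and measured 131, 121 and 137 normalized counts in the TKO retinae, against 403, 289 and 312 in the DKO retinae. DKO replicate 1 was the highest, and the groups were separate. The means were 130 ± 8.25 and 334 ± 60.3, a log2 fold change of -1.37 (standard error 0.156).

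Of 16 other genes of the PARP family or its partners, 2 were called lower and 0 higher, with a median log2 fold change of -0.30. The called genes were Zc3hav1, an antiviral zinc finger protein without ADP-ribosyltransferase activity (log2 fold change -1.87, adjusted p = 0.006025 by edgeR), and Parp9 (-1.24, adjusted p = 0.00473 from edgeR). Dtx3l, which pairs with Parp9 and is also the tested gene next to Parp14, had -0.93 (adjusted p = 0.0113 from edgeR) and passed 0.05 in the fits other than those without TKO replicate 2 or without DKO replicate 1. The most abundant members, Tnks2, Parp6 and Tnks, had 0.29, 0.012 and 0.078, where edgeR gave an adjusted p of 0.0659 or more. At an adjusted p of 0.05 from edgeR without the fold change limit, 7 of the 16 were lower and 0 higher. In all genes tested, 9.20% were lower and 7.35% higher at that threshold. With total counts only, 4 genes of the family were called lower with both limits.

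Xaf1 binds the caspase inhibitor XIAP and is known to be induced by interferon. It lies on chromosome 11 from 72301629 to 72313733 and measured 58.5, 48.4 and 78.5 normalized counts in the TKO retinae, against 198, 159 and 133 in the DKO retinae. The gap was the narrowest of the 8 separate genes, with the lowest DKO retina at 1.69 times the highest TKO retina. The means were 61.8 ± 15.3 and 163 ± 32.5, a log2 fold change of -1.40 (standard error 0.233).

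Its partner Xiap went the other way, at 4477 ± 1015 in TKO and 2509 ± 136 normalized counts in DKO retinae (log2 fold change 0.84, adjusted p = 0.0123 from edgeR). The adjusted p of Xiap was above 0.05, at most 0.0594, without TKO replicate 2 and without DKO replicate 2. Of 10 genes of the inhibitor of apoptosis family and its antagonists, 2 were called lower, Birc5, which is also a mitotic gene, and Naip5, an inflammasome sensor. Birc6 and Diablo, with Xiap the most abundant of them, differed by log2 fold changes of 0.33 and -0.055, where edgeR gave an adjusted p of 0.243 or more. The count was 1, Birc5, when leaving out TKO replicate 1, TKO replicate 2, DKO replicate 1 or DKO replicate 2.

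**Figure D2:**
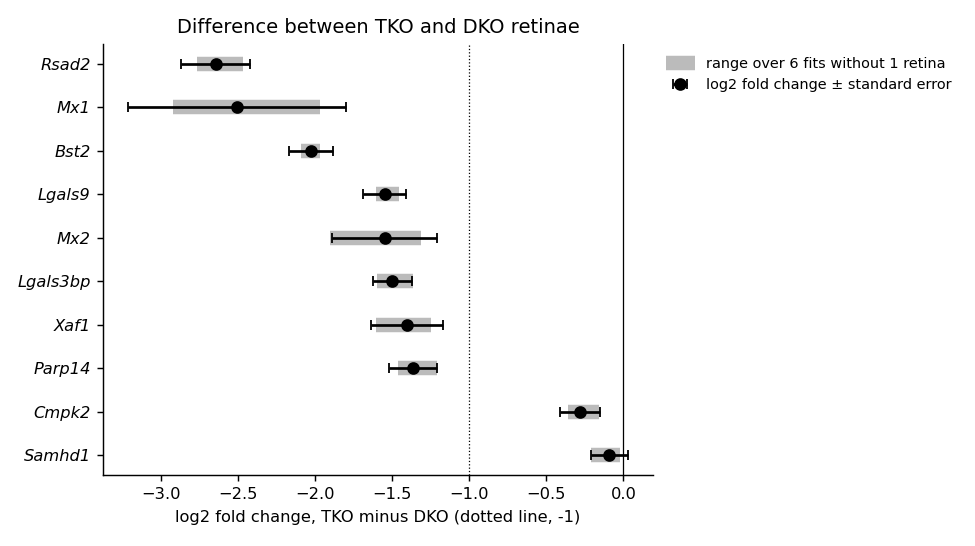
Log2 fold change of TKO against DKO retinae (x axis) for the 10 genes, with points and bars for the estimate and its standard error and grey bands for the range over 6 fits that each left out 1 retina. The bands of 8 genes lie left of the dotted line at -1, and those of Cmpk2 and Samhd1 lie between -0.36 and -0.023.

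Levels were compared between genes as RPKM over the union of annotated exons. In DKO retinae Lgals3bp was highest at 26.9 ± 4.37 RPKM and Bst2 next at 26.5 ± 2.32, and their ranges overlapped. Lgals9 followed at 9.33 ± 0.411, then Cmpk2, Samhd1 at 5.58 ± 0.529, Rsad2, Parp14 at 2.84 ± 0.512 and Xaf1 at 2.75 ± 0.548. The ranges of Rsad2 and Parp14 overlapped, and so did those of Parp14 and Xaf1. Mx2 at 1.13 ± 0.256 and Mx1 at 0.549 ± 0.291 were lowest.

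The order was different in TKO retinae. Cmpk2 at 6.06 ± 0.548 RPKM and Samhd1 at 5.23 ± 0.707 stood directly after Bst2 there, above Lgals9 at 3.19 ± 0.374. Lgals3bp at 9.54 ± 0.320 and Bst2 at 6.49 ± 0.522 stayed highest, and the ranges of Bst2 and Cmpk2 overlapped. Rsad2 fell to 0.571 ± 0.0873 RPKM and its range overlapped that of Mx2, at 0.385 ± 0.152.

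**Figure D3:**
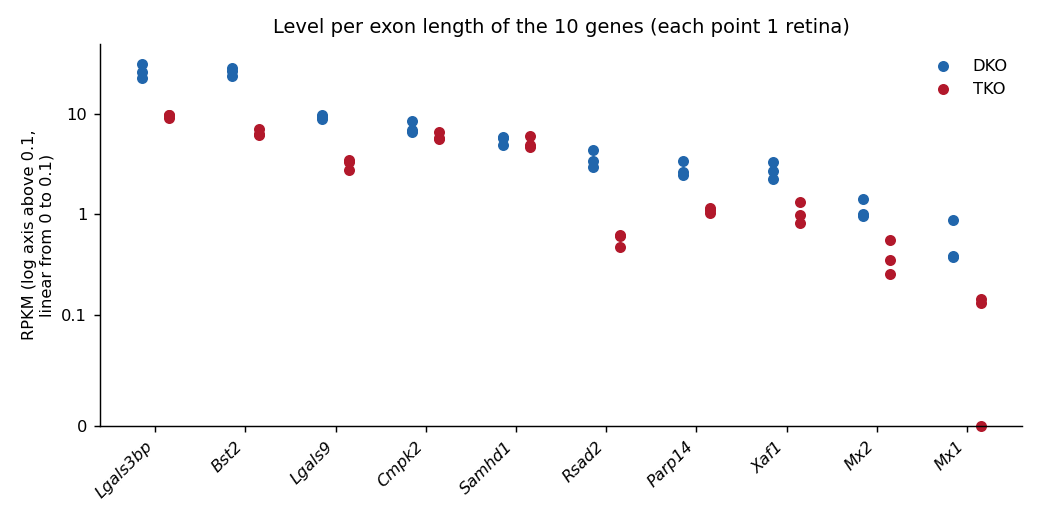
RPKM (y axis, logarithmic above 0.1 and linear below) of the 10 genes in order of their DKO mean, with 1 point for each retina. Cmpk2 and Samhd1 have nearly level points in both genotypes, and the single point at 0 is Mx1 in TKO replicate 3.

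The genes next to the 10 were read to see how far the differences extended along the chromosome. Of 16 neighbours that are not among the 10, from 1.05 to 571 kb away, 0 were called lower and 0 higher with the thresholds above, and the median log2 fold change was -0.20. At an adjusted p of 0.05 from edgeR without the fold change limit, 3 were lower, Plvap beside Bst2 (log2 fold change -0.89, adjusted p = 0.0391), Rnf144a beside Rsad2 (-0.98, adjusted p = 0.00674) and Dtx3l beside Parp14, and 0 were higher. In all genes tested, 9.20% were lower and 7.35% higher at that threshold. Plvap, an endothelial gene, did not pass it in 5 of the 6 fits with 1 retina left out. None of the 10 lies on chromosome 19, which carries Hells.

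The wider interferon pathway was read from hand-written lists. Of 12 interferon genes, 9 had 0 counts in each library. Ifnb1, Ifnz and Ifng had 1, 2 and 2 counts over the 3 DKO libraries and 0 over the TKO libraries. No difference in a transcript of these 12 genes was thus detectable at this depth, and interferon genes outside the list were not read. Of 64 other interferon effector genes tested, 46 were called lower and 0 higher, with a median log2 fold change of -1.46. Each of the 64 had a log2 fold change below 0, as had 51.2% of all genes, but Ifitm1, which was not called, had 0.18 without DKO replicate 3. The range of the count was 37 to 49 over the fits with 1 retina left out.

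B2m, the light chain of MHC class I molecules, stood at 980 ± 109 in TKO and 2845 ± 190 normalized counts in DKO retinae (log2 fold change -1.54, adjusted p = 0.00193 from edgeR). H2-K1, a class I heavy chain, had -1.51 (adjusted p = 0.00473 from edgeR). Among called genes, large fitted differences were those of Ifi44 (log2 fold change -3.35), the 2′-5′ oligoadenylate synthetases Oas1a (-3.10) and Oas2 (-2.91), and Slfn2 (-2.65), where edgeR gave an adjusted p of 0.0104 or less. Without TKO replicate 2 the adjusted p of Slfn2 was 0.0519. Epsti1, also called, was at 0, 2.10 and 2.45 normalized counts in the TKO retinae, each below the level that 3 counts give, and at 20.7, 23.6 and 22.4 in the DKO retinae, so its fold is not given. Like Cmpk2 and Samhd1, some listed genes hardly differed: Adar, the RNA-editing enzyme with the largest mean count of the list, had 2330 ± 58.1 and 2409 ± 31.4 normalized counts (log2 fold change -0.048, adjusted p = 0.670 from edgeR).

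Of 32 receptors, kinases, transcription factors and sensors of the pathway, 8 were called lower and 0 higher, with a median log2 fold change of -0.58. The called genes were Mb21d1, which encodes the DNA sensor cGAS (log2 fold change -2.56), Nlrc5, the activator of MHC class I genes (-1.70), Tmem173, which encodes STING (-1.54), Tlr7 (-1.45), Irf7 (-1.26), Irf1, Irf5 and Irf8. For each of the 8, edgeR gave an adjusted p of 0.0444 or less. Jak1 and Stat3, abundant genes of the list, differed by log2 fold changes of 0.095 and 0.00996, and edgeR put their adjusted p at 0.397 and 0.984. Leaving out TKO replicate 1 gave 4 called genes, leaving out TKO replicate 2 gave 2, and leaving out DKO replicate 1 or DKO replicate 2 gave 3. In these fits with edgeR the adjusted p of Irf7 and Nlrc5 was 0.0409 or less.

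**Figure D4:**
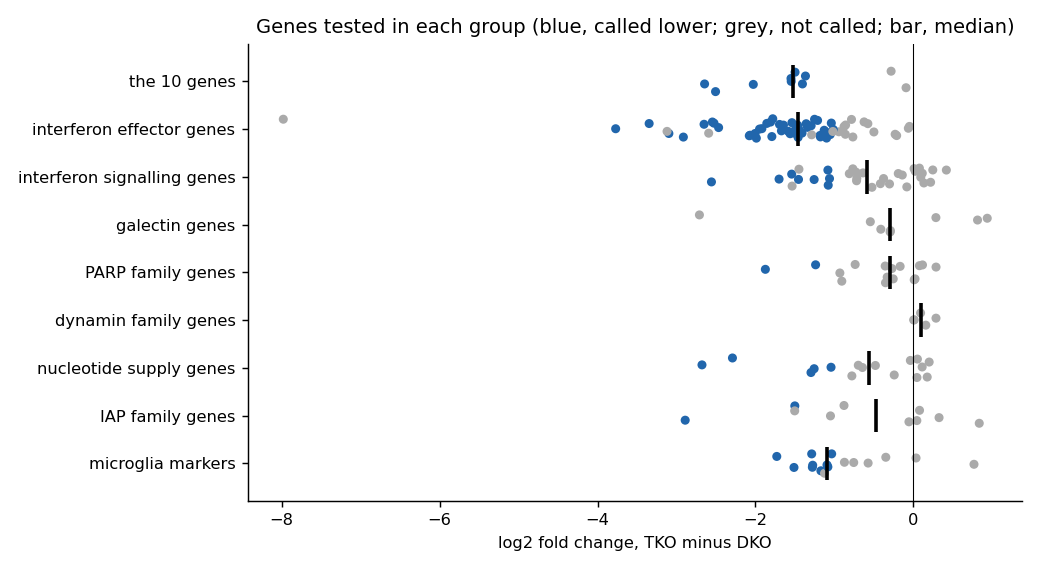
Log2 fold change of TKO against DKO retinae (x axis) for the 10 genes, other genes of the interferon pathway, their family relatives and microglia markers, with a point for each tested gene and a bar for the median. The interferon effector genes are centred near -1.46, and the medians of the galectin, PARP and dynamin genes lie between -0.30 and 0.092.

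The genes whose pattern over the 6 libraries was most like the mean of the 10 were Irf7, Dusp18, Gbp6, Parp9 and Eif2ak2. Likeness was the root mean square difference of log2 CPM (read counts scaled for library size), each gene centred at its mean over the 6 libraries, and these 5 of 14966 other genes had values from 0.116 to 0.144. A similar difference between the genotypes brings a gene near by this measure, and these 5 had log2 fold changes from -1.69 to -1.24. The 10 genes were picked on that difference, so nothing further is read from the ranking. Among the 10 themselves Parp14 was nearest to their mean at 0.134, and Samhd1 and Mx1 were farthest at 0.681 and 0.818. Gbp6, an interferon-inducible GTPase, had 125 ± 16.3 and 375 ± 49.5 normalized counts. Eif2ak2, the double-stranded RNA sensor PKR, had 104 ± 4.14 and 336 ± 68.5, and Dusp18, a phosphatase, 51.0 ± 3.36 and 145 ± 27.4.

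The spread between replicates of a genotype was small for most of the 10. The median SD of log2 CPM within a genotype was 0.178 over the 10 genes, near the 0.163 of all genes with a mean normalized count of at least 10, and below the 0.496 of 8 rod markers and the 0.728 of 10 dividing cell markers. It ran from 0.119 for Bst2 to 0.975 for Mx1. The mean of the 10 genes, each centred over the 6 libraries, was -0.58, -0.74 and -0.84 in TKO replicates 1, 2 and 3 and 0.95, 0.66 and 0.56 in DKO replicates 1, 2 and 3. Without Mx1 the TKO values were -0.60, -0.77 and -0.65.

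Other cell types differed along with the genotype. Microglia are the resident immune cells of the retina and are known to express several of the 10 genes. Of 16 microglia markers, 9 were called lower and 0 higher, with a median log2 fold change of -1.09, and their summed level was 2136 to 3823 in TKO and 4554 to 6905 normalized counts in DKO retinae. Csf1r, their growth factor receptor, had 404 ± 102 and 827 ± 168 normalized counts (log2 fold change -1.03, adjusted p = 0.0135 by edgeR), and C1qb, a complement gene, had -1.17 (adjusted p = 0.0202 from edgeR). Leaving out 1 retina gave 5 called markers for TKO replicate 1, 2 for TKO replicate 2, 3 for DKO replicate 1 and 2 for DKO replicate 2.

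The replicates were ordered differently in these groups. The mean centred level of the microglia markers was -0.76, -0.50 and -0.076 in TKO replicates 1, 2 and 3 and 0.51, 0.71 and 0.12 in DKO replicates 1, 2 and 3, so the nearest TKO and DKO retinae were 0.19 apart. The nearest retinae were 1.15 apart for the 10 genes and 1.27 apart for 62 interferon effector genes with a mean normalized count of at least 10. The 10 genes were picked on this contrast and the lists written with earlier results known, so nothing is read from these gaps. The microglia mean covers markers that differed in both directions, 14 of 16 with a log2 fold change below 0 and the highest at 0.77. In 10 of the 16 every TKO retina lay below every DKO retina, beside 20.6% of all genes. The dividing cell markers, 10 of 10 called lower with a median log2 fold change of -2.60 (6 of 10 without TKO replicate 2), ranged over 1.68 among the TKO retinae, where the interferon effector genes ranged over 0.18. The part of microglia or of dividing cells in the lower counts of the 10 genes was not tested.

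**Figure D5:**
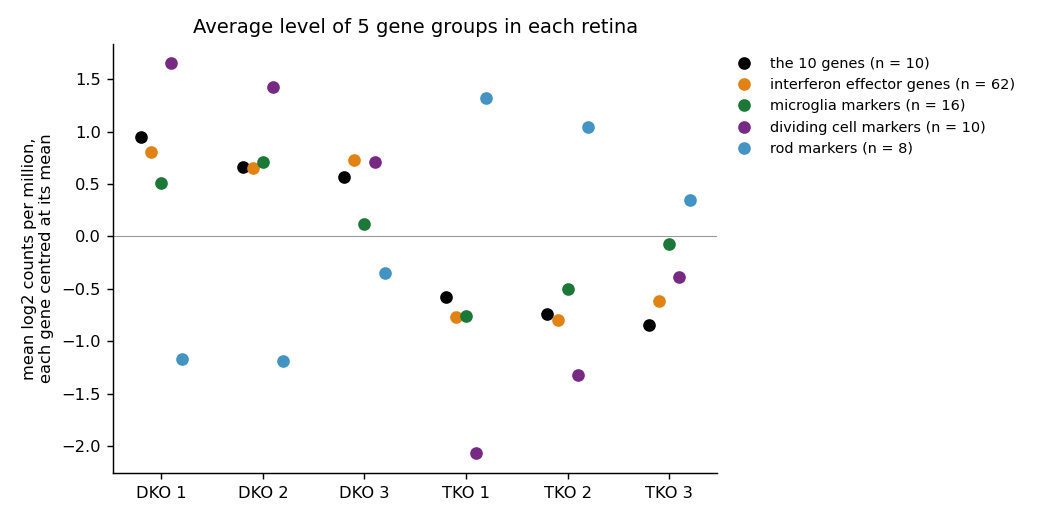
Mean log2 CPM of 5 gene groups in each of the 6 retinae (y axis, every gene centred at its mean over the libraries), with 1 point for each group and retina. The 10 genes and the interferon effector genes stay within narrow bands in each genotype, and microglia, dividing cell and rod markers come closest together in DKO replicate 3 and TKO replicate 3.

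Markers of other immune cells were near the limit of detection. Of 10 lymphocyte and NK markers in the table, 5 were tested, their summed level was 30.5 to 44.7 in TKO and 50.1 to 71.5 normalized counts in DKO retinae, Cd3e was at 0 in all libraries, and Cd4 was the 1 gene called lower (0 without TKO replicate 1, TKO replicate 2, DKO replicate 1 or DKO replicate 2). Cd4 and Cd8a averaged 5.09 and 11.3 in TKO and 21.0 and 9.13 normalized counts in DKO retinae. Of 5 neutrophil markers in the table, 1 was tested, and their sum was at most 1.15 in TKO and 13.0 in DKO retinae.

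The markers of the retina itself were present in every library. Rod markers summed to 337187 to 684671 in TKO and 114917 to 219182 normalized counts in DKO retinae (median log2 fold change 1.81). The medians were 0.24 for bipolar, 0.11 for Muller glia, -0.24 for amacrine, 0.19 for ganglion cell, 0.48 for endothelial and -0.35 for astrocyte markers, and with total counts only that of Muller glia markers was -0.045. These medians cover genes that differed in both directions. Of the 8 Muller glia markers, 3 were higher and 1 lower at an adjusted p of 0.05, and Glul, glutamine synthetase, was called higher (log2 fold change 1.15, adjusted p = 0.00548 from edgeR). Of the astrocyte markers Gfap had -1.46 (adjusted p = 0.0566 from edgeR) and Aldh1l1 0.87 (adjusted p = 0.0695 from edgeR). Genes of tissue beside the retina were uneven, with lens markers at 519 to 3470 in TKO and 105 to 109 normalized counts in DKO retinae, highest in TKO replicate 2, and RPE markers at 744 to 2313 and 192 to 1033. The part of these cell types in the values of the 10 genes was not tested. With TKO replicate 2 left out, the median log2 fold change of the 10 genes was -1.41 and 6 of them met the criteria for a lower gene, where 312 genes in all did.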

How the data were processed

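RNA-seq read pairs of 6 whole retinae were counted per gene symbol by the authors, who deposited raw counts without normalization. The paper's methods name STAR and HTSeq on GRCm38 and allow reads with several alignments, the submitters' processing notes name TopHat2 and featureCounts, and the strand setting is not given in the sources used here. Group and replicate number came from the sample titles. The labels do not give the sex of a retina or say whether retinae came from separate animals, so p-values measure the spread between these samples.

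Genes with a sum under 10 were removed. edgeR 4.0.16 in R 4.3.3 (TMM, quasi-likelihood F test) compared TKO with DKO, with Benjamini-Hochberg adjustment over 16904 genes. Standard errors were taken from the F statistic, as the size of the log2 fold change over its root. The minimum mean of 10 used the size factors of DESeq2 1.42.0. On counts simulated for this comparison, with 16751 genes fitted, the test called 199 of 200 genes changed by a log2 fold change of 2 and 14 of 16704 unchanged genes. The 16704 include genes that fell below the count filter in the simulation, which were scored as not called. RPKM used exon unions of GENCODE M21 (GRCm38), where 94.5% of symbols were found. No 2 replicates were alike within counting error (chi-square over its degrees of freedom, 8.61 to 25.3).

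The 10 genes, the lists and the tests were chosen with earlier results of these data known. Lists left out the 10 genes, and Rnf213, Ifit3b and Ifit1bl1 were not analysed here. The rule named the 10 genes, the 3 most abundant genes of a list, the 5 called interferon effector and signalling genes with the largest difference, the nearest tested neighbours, and the 5 genes most alike. Not all of these are reported here. Irf1, Irf5, Irf8, Ifitm1, Lgals7, Zc3hav1, Parp9 as a PARP gene, Rrm2, Birc5 and Naip5 were named after their values were seen. Alternatives were DESeq2, other scalings, filters and thresholds, robust dispersion, the replicate number as a block, and each retina left out.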

Additional observations from a re-analysis of the deposited data

How the results depend on the processing

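The log2 fold changes of the 10 genes stayed below 0 under each of the 14 alternatives that refit them. DESeq2, the other scalings and filters and robust dispersion gave 8 of 10 genes lower, the same count as the main test, and an adjusted p of at most 0.01 gave 6. With 1 retina left out, 6 to 8 of the 10 were called lower. Over all genes, 741 were called lower, against 1496 without a minimum fold change, 292 with an adjusted p of at most 0.01 and 312 to 1024 with 1 retina left out. Scaling by total counts put the median over all genes at -0.17, against -0.011, and 79.9% of called genes were then lower, against 69.0%. The interferon signalling genes called lower numbered 2 with an adjusted p of at most 0.01 and 2 to 8 with 1 retina left out, against 8. A fit with a replicate block called 75 genes in all, 5 of the 10 genes, 22 interferon effector genes and 1 interferon signalling gene lower. Mx1, Mx2 and Xaf1 were the genes of the 10 that no longer met the criteria. In that fit the microglia markers called lower went from 9 to 0, dividing cell markers from 10 to 0, nucleotide supply genes from 5 to 0, IAP genes from 2 to 0, PARP genes from 2 to 1 and lymphocyte and NK markers from 1 to 0. Retinae that share a number did not deviate together (correlations of 0.067, -0.049 and -0.20). The labels do not say whether they were paired, and these correlations cannot decide it. The cause of the changes with a retina left out was not tested. Mx1, at 0 to 6 counts in TKO libraries, is the gene most limited by depth.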
